A study of Mus musculus with 5 samples.

Results

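The contacts of the promoters of cytosolic ribosomal protein genes, the genes that encode the protein subunits of the cell's main ribosomes, were measured in the supporting cells of the fetal mouse gonad. Members were chosen by name alone: a bait belonged to the set when a gene symbol in its name had the form Rpl, Rps or Rplp followed by a number, and when it lay on chromosomes 1 to 9. Kinases of the Rps6k family and pseudogenes were left out. In a table with baits of single restriction fragments (the original baits) this gave 23 baits of 19 genes, among 7674 baits of 5587 genes. In a table with baits widened to bins of about 5 kb (the extended baits) it gave 38 baits of 37 genes, among 11063 baits of 8390 genes.

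Capture Hi-C joins DNA ends that were crosslinked close together in the nucleus and enriches the products that hold a promoter bait. Sertoli cells, the supporting cells of the testis, were sorted by a GFP reporter (Sox9IRES-GFP) into 3 libraries, and pre-granulosa cells, their counterpart in the ovary, by an mCherry reporter (Enh8-mCherry) into 2 libraries, all at E13.5. About 100000 sorted cells went into a library, so the cells are those in which each reporter was active. Each interaction carried 1 CHiCAGO score for Sertoli cells and 1 for pre-granulosa cells, and a score of at least 5 is called a contact here. With 1 value for all libraries of a cell type, no difference below has a replicate check or a test; the intervals are 95% intervals and cover counting error only, and the sequencing depth behind each score is unknown.

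Ribosomal proteins are made in matched amounts in every growing cell, and their genes lie scattered over nearly all chromosomes. Their messenger RNAs mostly begin with a run of C and T bases, the 5′ terminal oligopyrimidine tract, through which the growth-sensing kinase mTOR controls their translation. Many have spread processed pseudogenes through the genome. RefSeq listed 44 protein-coding genes of the set on these chromosomes. Of these, 38 had a bait with a listed interaction in at least 1 table, 24 of the large subunit and 14 of the small, and 18 had one in both tables. Rpl14, Rpl31, Rpl9, Rps15a, Rps27 and Rps6 had no listed interaction as baits in either table.

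The start sites of 8 members whose contacts are described below show the runs of C and T found near them. They were not drawn to be typical: 7 of the 8 have a run of at least 8 bases, which most member promoters lack. Each window holds 30 bases of the coding strand around the RefSeq start (GRCm38.p6), and capitals mark the longest run of C and T that touches the 11 bases centred on it. The start is base 16 of each window. The large subunit genes are Rpl7a (chr2:26910792-26910821, plus strand), Rpl35 (chr2:39005117-39005146, minus), Rpl34 (chr3:130730323-130730352, minus), Rpl13a (chr7:45128731-45128760, minus), Rpl28 (chr7:4792950-4792979, plus) and Rpl11 (chr4:136053379-136053408, minus). Rplp2 (chr7:141447636-141447665, plus) encodes a protein of the ribosomal stalk, and Rps9 (chr7:3704026-3704055, plus) a small subunit protein.
Rpl7a: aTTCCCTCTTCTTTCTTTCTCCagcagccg
Rpl35: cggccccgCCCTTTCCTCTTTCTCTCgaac
Rpl34: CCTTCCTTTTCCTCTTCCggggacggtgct
Rpl13a: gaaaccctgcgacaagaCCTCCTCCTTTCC
Rpl28: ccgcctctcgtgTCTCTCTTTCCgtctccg
Rplp2: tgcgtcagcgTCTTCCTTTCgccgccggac
Rps9: accgccttgTCTCTCTTTgtctcgggcctg
Rpl11: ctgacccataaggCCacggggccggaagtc
The run was 21 bases long at Rpl7a and 18 at Rpl35, but 2 at Rpl11, whose RefSeq start thus carries no long tract. Rpl34 has another RefSeq start, with a run of 6. Most of these runs are not a tract in the strict sense, which begins with a C at the start base: of the 8 windows those of Rpl35, Rpl28 and Rplp2 alone have it, and at Rpl13a the run begins after the start base.

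RefSeq gave 33 promoters for 27 of the 38 genes. Some genes have several entries with overlapping windows, and the intervals below treat all entries as independent. A run of at least 8 pyrimidines touched the central 11 bases, read on the coding strand alone, in 12 of the 33, which is 36.4% (22.2% to 53.4%), against 9.91% of 18612 promoters on the same chromosomes. The strict form of the tract, a C at the start base followed by at least 4 pyrimidines, was found in 4 promoters, 12.1% (4.82% to 27.3%), against 2.42%. Median GC content over the 300 bases of a promoter entry was 60.3% against 53%, and the median number of CG dinucleotides was 24 against 7. The letters TATAAA, searched on both strands of the 250 bases before the start, occurred in 2 member promoters, 6.06% (1.68% to 19.6%), against 12.5%.

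The enzyme that cut the chromatin, DpnII, recognises GATC, and so the letters of a promoter decide where its bait can begin and end. GATC, which reads the same on both strands, was found in 9 of the 33 member promoter entries, 27.3% (15.1% to 44.2%), against 47.7% of all. The 9 include all 3 entries of Rps19, which overlap in part. The 250 bases before the starts of Rpl7a (chr2:26910557-26910806, plus strand) and Rpl28 (chr7:4792715-4792964, plus strand) show a promoter without the site and one with it, in capitals.
Rpl7a: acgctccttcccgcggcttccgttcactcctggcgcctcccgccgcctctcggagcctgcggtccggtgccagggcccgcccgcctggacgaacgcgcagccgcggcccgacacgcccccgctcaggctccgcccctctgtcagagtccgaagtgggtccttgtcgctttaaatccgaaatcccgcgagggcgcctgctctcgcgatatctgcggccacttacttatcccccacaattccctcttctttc
Rpl28: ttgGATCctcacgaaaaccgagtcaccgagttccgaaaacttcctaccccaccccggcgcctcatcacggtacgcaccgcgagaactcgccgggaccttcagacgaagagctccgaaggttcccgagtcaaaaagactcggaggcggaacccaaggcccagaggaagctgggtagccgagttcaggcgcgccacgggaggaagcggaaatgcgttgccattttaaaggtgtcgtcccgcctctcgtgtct
At Rpl28 the original bait chr7:4792718-4793378 begins at this site and holds the start. At Rpl7a the original bait, chr2:26910308-26911321, covers the whole promoter. Not every bait holds its start: of 15 original member baits with a RefSeq promoter 11 do, and Rpl28-203, Rpl13a-215, Rpl18-211 and Rps25-201 do not. Of 29 extended ones 27 do.

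Ribosomal protein promoters made contacts in both cell types, more of them called in Sertoli cells. Of the 81 interactions listed for the original baits, Sertoli cells had a call at 60 and pre-granulosa cells at 39, with 18 called in both; over all baits 80.2% and 41.5% of listed interactions were called. This is 1.54 Sertoli calls for each pre-granulosa call (1.03 to 2.30), a ratio that was 1.93 (1.89 to 1.98) over all baits. Of the 191 listed for the extended baits, Sertoli cells had a call at 146 and pre-granulosa cells at 116, at 71 of them both, where the shares over all baits were 78.7% and 55.9%. The ratio was then 1.26 (0.987 to 1.61), against 1.41 (1.39 to 1.43). A shared interaction counts on both sides of these ratios, and their intervals treat its 2 calls as independent, which they are not. With shared ones left out, 42 Sertoli-specific and 21 pre-granulosa-specific original interactions remain, against 16966 and 5734 over all baits. In the extended table these are 75 and 45, against 22343 and 10800. A list is made of interactions that reach 5 in at least 1 cell type, and 3 libraries stand behind the Sertoli column against 2 behind the other; the part of this in the counts was not tested. When the Sertoli threshold was raised until both cell types had equal numbers of calls over all baits, the direction turned, with ratios of 0.87 and 0.91.

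The balance of calls differed between baits, in the original table in shares close to those of all baits. Of 23 baits in the original table, 15 had more Sertoli calls and 5 more pre-granulosa calls, against 65.2% and 22.0% of all baits. Of 38 in the extended table, 16 had more Sertoli calls, 10 more pre-granulosa calls and 12 equal numbers, against 53.6% with more Sertoli and 26.4% with more pre-granulosa calls. The median bait had 2 listed interactions in the original table and 3 in the extended one, both the same as over all baits. The 3 fullest baits, Rpl21 and Rpl7a among them, held 44.4% of the original interactions, and the 3 fullest extended baits, with Rpl28 and Rpl29, held 35.6%. Without the 3 fullest of each table, 36 Sertoli and 17 pre-granulosa calls were left in the original table, a ratio of 2.12, and 88 and 78 in the extended one, a ratio of 1.13.

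**Figure D1:**
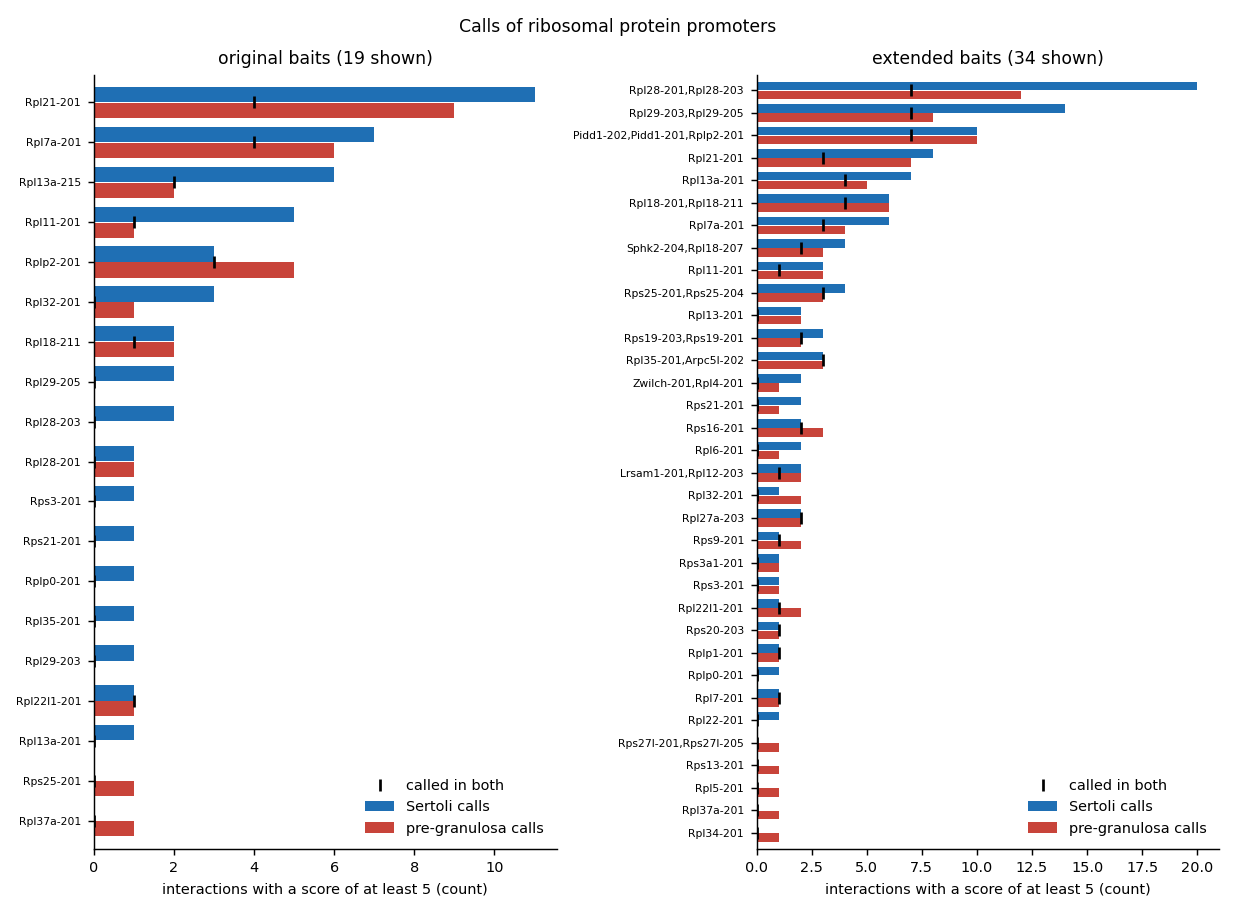
Number of interactions with a score of at least 5 (x axis) for ribosomal protein baits (y axis), in Sertoli cells (blue bars) and pre-granulosa cells (red bars), with black ticks for interactions called in both. The left panel has 19 of the 23 original and the right panel 34 of the 38 extended baits. A few baits stand out, with 11 Sertoli calls for Rpl21 on the left and 20 for Rpl28 on the right.

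A part of the contacts was the same in both cell types. Of the original Sertoli calls 30.0% (19.9% to 42.5%) were also called in pre-granulosa cells, against 27.0% over all baits, and 46.2% (31.6% to 61.4%) of pre-granulosa calls were also made in Sertoli cells, against 52.3%. Extended baits gave larger shares, 48.6% (40.7% to 56.7%) against 43.9% and 61.2% (52.1% to 69.6%) against 61.8%. All 4 intervals hold the value of all baits. Some calls made in 1 cell type alone were near misses in the other, as they were over all baits. Of 42 Sertoli-specific original interactions 13, or 31.0%, scored at least 3 in pre-granulosa cells, against 33.9% over all baits, and of 21 pre-granulosa-specific ones 9, or 42.9%, scored at least 3 in Sertoli cells, against 48.3%. In the extended table the shares were 42.7% against 39.8% and 40% against 48.4%.

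**Figure D2:**
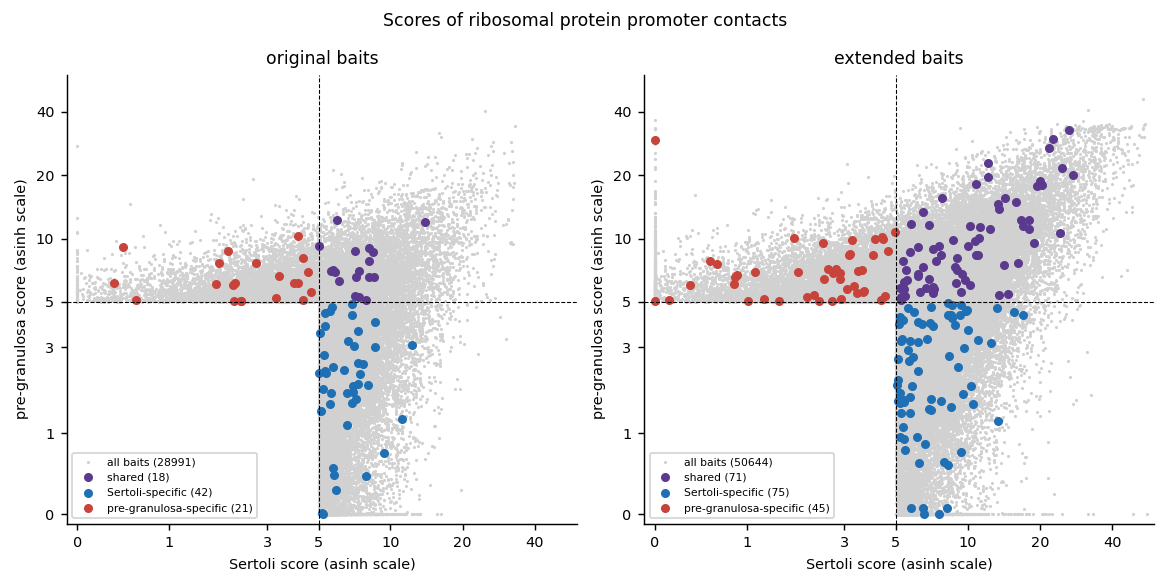
CHiCAGO score in Sertoli cells (x axis) against pre-granulosa cells (y axis), both on an inverse hyperbolic sine scale, for all interactions (grey) and those of ribosomal protein baits (coloured by where they were called), with dashed lines at the threshold of 5. The members lie among the other baits, with 18 shared contacts on the left and 71 on the right, and the red point on the left edge, at 0 for Sertoli and 29.5 for pre-granulosa cells, is the Slc25a22 bin seen from Rplp2.

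Among large subunit genes, Rpl7a made the longest contacts of the original table. Rpl7a lies in the Surfeit cluster, a tight group of unrelated housekeeping genes on chromosome 2. Its bait met 5 touching bins, chr2:26635874-26662662, which together span 26.8 kb and lie 251 to 272 kb upstream of the gene. From the far end to the near end, the Sertoli scores were 7.19, 8.61, 8.57, 7.11 and 2.01. The pre-granulosa scores in that order were 6.57, 4.00, 6.55, 8.81 and 8.78. The near edge of the stretch was thus called in pre-granulosa cells alone and the second bin in Sertoli cells alone, while the other 3 bins were called in both. These gave all of the original members' calls at 200 kb or more, 4 in each cell type; over all baits 6.99% of Sertoli and 5.06% of pre-granulosa calls lay that far.

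The extended bait of Rpl7a gave the same division of the stretch, with 5.42, 6.78, 7.25, 5.36 and 0.554 for Sertoli and 5.78, 3.32, 5.75, 7.88 and 7.85 for pre-granulosa cells. That bait holds the original one and was scored in the same libraries, so this is no second measurement. The stretch holds Dipk1b, the snoRNA host gene Snhg7 with Snora43 and Snora17, Snhg7os and the transcribed pseudogene Gm2240. It was not met by Rpl7a alone. The neighbouring Surf2 bait scored 9.02 in Sertoli and 5.50 in pre-granulosa cells at the second bin, 1.30 and 5.89 at the fourth, and 5.03 and 1.27 at the fifth, where Rpl7a had the higher pre-granulosa score. The Surf6 bait scored 4.84 and 7.52 at the third bin and 5.14 and 0.954 at the fourth, both in the reverse order of Rpl7a. The division of the stretch between the cell types thus differed from bait to bait. The extended bin of Surf1 and Surf2 scored 11.6 and 9.89 at the second bin, above any score of Rpl7a there. Nearer to the gene, the original Rpl7a bait met bins of Med22 (7.05 in Sertoli, 3.06 in pre-granulosa cells), Surf4 (7.09 and 5.32) and Rexo4 (6.89 and 1.53), and a bin of Surf1, Surf2 and Surf4 that was pre-granulosa-specific (4.28 and 8.08).

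Rpl21 on chromosome 5 had the most original interactions, 16, of which 7 were Sertoli-specific, 5 pre-granulosa-specific and 4 shared. They lay from 137 kb on the lower-coordinate side, across Usp12, a deubiquitinase gene, to 59.5 kb on the other. The strongest Sertoli-specific one, 126 kb away, scored 9.41 against 0.724, and the bin of Rasl11a at 15.6 kb scored 1.75 against 6.09. With the extended bait the Rasl11a bin scored 4.06 and 10.04, and from the Rasl11a bait the pair was a shared call at 10.8 and 17.8. All 5 original bins over Usp12 scored higher in Sertoli cells, with Sertoli scores from 5.28 to 7.88, and 4 of them were Sertoli-specific. With the extended bait 4 bins over Usp12 were Sertoli-specific, and the bin of the Usp12 promoter scored 3.64 and 5.65. From the Usp12 bait that pair was called in both cell types, at 12.3 and 12.8.

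Rpl11, whose protein binds the p53 regulator Mdm2 when ribosome assembly is disturbed, had 5 original interactions, and all 5 scored higher in Sertoli cells. The bin of Id3, an inhibitor of basic helix-loop-helix transcription factors, scored 7.31 in Sertoli and 2.49 in pre-granulosa cells at 93.5 kb upstream. A bin 105 kb upstream scored 11.1 and 1.23, and one at E2f2, a cell cycle transcription factor, scored 5.17 and 0.00994. The extended bait had 3 Sertoli and 3 pre-granulosa calls and did not keep this order throughout. At Id3 the bin with the Id3 promoter scored 6.20 and 6.84, and 8.80 and 9.64 from the Id3 bait. A bin 17.0 kb away scored 4.32 and 5.13, where the matching original bin had 7.40 and 5.28, and the one next to it 1.25 and 5.19. The order was kept at Pithd1, 9.15 and 2.40, and at a bin beyond Id3, 6.60 and 0.846. Rpl5, which binds Mdm2 together with Rpl11, had 1 listed contact, with Evi5 (0.844 in Sertoli, 6.60 in pre-granulosa cells).

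Rpl28 on chromosome 7 had the largest difference in calls among extended member baits, 20 in Sertoli and 12 in pre-granulosa cells. Of its 25 interactions 13 were Sertoli-specific, 5 pre-granulosa-specific and 7 shared, 21 lay on the upstream side, and 18 ended in bins with a promoter bait. The strongest were with Tmem150b (17.0 in Sertoli, 4.35 in pre-granulosa cells), the kinase gene Brsk1 (16.3 and 7.72) and Hspbp1 (14.8 and 5.44). Farther upstream it met the troponin gene Tnni3 at 269 kb (8.48 and 1.45) and the synaptotagmin gene Syt5 at 248 kb (8.19 and 0.0676), and from the Syt5 bait the same pair scored 6.61 and 0.0180. The farthest, with the troponin gene Tnnt1 at 280 kb, scored higher in pre-granulosa cells (2.65 and 5.06). So did a bin of the histone methyltransferase gene Kmt5c (4.96 and 10.8), which was a shared call from the Kmt5c bait (5.42 and 14.4), and one at Zfp628 (0.340 and 6.04, and 1.71 and 11.9 from the Zfp628 bait). The 2 original baits of Rpl28 had 2 interactions each, of which 3 were Sertoli-specific and 1 pre-granulosa-specific.

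Rpl29 on chromosome 9 met a long stretch of Poc1a, a centriole gene. Among its extended contacts 9 bins from 149 to 92.5 kb on the lower-coordinate side lay in Poc1a, all called in Sertoli cells, with scores from 5.20 to 18.0. Of these, the bin of the Poc1a promoter (18.0 in Sertoli, 11.1 in pre-granulosa cells) and 1 other (7.08 and 5.69) were also called in pre-granulosa cells, and the remaining 7 scored between 0.918 and 4.09 there. The original baits of Rpl29 listed 2 bins of that stretch, 6.65 against 3.22 and 6.97 against 1.90. On the other side, contacts with Acy1 (11.3 in both) and with the bin of Parp3 and Rrp9 (14.3 and 15.6) were shared. The original bait Rpl29-205 met a bin of Parp3 at 38.4 kb in Sertoli cells alone, with 7.66 and 2.47.

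Rpl18 gave neighbouring bins with opposite calls. At Lmtk3 the original bait scored 0.363 in Sertoli and 6.19 in pre-granulosa cells 81.7 kb downstream, and 12.4 and 3.09 in the next bin, at 87.0 kb, which also holds part of Cyth2. The extended bait scored 12.6 and 3.16 at that second bin. The first was listed there from the bin that Rpl18 shares with Sphk2, and it scored 5.18 and 1.74, the other way round from the original bait.

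Other large subunit genes had few contacts, and some were strong. Rpl35 shares its extended bin with Arpc5l and met Nr6a1, which encodes an orphan nuclear receptor, at 80.3 kb with scores of 20.4 in Sertoli and 17.9 in pre-granulosa cells. From the original bait this pair scored 6.56 and 1.75, the only original contact of a member that ended in another bait. In the extended table it scored 11.8 and 13.2 from the Nr6a1 bait. Rpl7 met the bin of 4930444P10Rik at 10.4 kb with 12.2 and 22.8, although the same pair scored 1.72 and 6.42 from the other bait. Rpl37a met Igfbp2, a binding protein of insulin-like growth factors, in pre-granulosa cells alone in both tables, with 2.30 and 5.03 from the original bait and, at another bin, 2.19 and 5.41 from the extended one. Rpl32 met a bin of Mkrn2 with 2.66 and 7.65. Rpl13, Rpl6, Rpl4 and Rpl12 had calls of both kinds, and Rpl27a met the bin labelled St5 with 6.50 and 13.4.

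The longest extended contacts belonged to genes with 1 or 2 interactions. Rpl34 met the promoter of Lef1, a transcription factor of Wnt signalling, over 384 kb (0.869 in Sertoli, 6.70 in pre-granulosa cells), and Rps3a1, a small subunit gene, met Fam160a1 over 399 kb (listed at 0 and 5.08). Neither pair was listed from its other end. In all, 14 extended interactions spanned 200 kb or more, giving 9 Sertoli and 8 pre-granulosa calls, where 6.17% and 5.51% of all baits' calls lay that far. Besides Rpl7a (5), Rpl28 (3), Rpl34 and Rps3a1, they came in part from Rpl18 to Emp3 (2.04 and 5.31), Rpl13 to Ankrd11 (9.86 and 4.51) and Rplp2 to a bin without a bait (5.11 and 1.57).

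**Figure D3:**
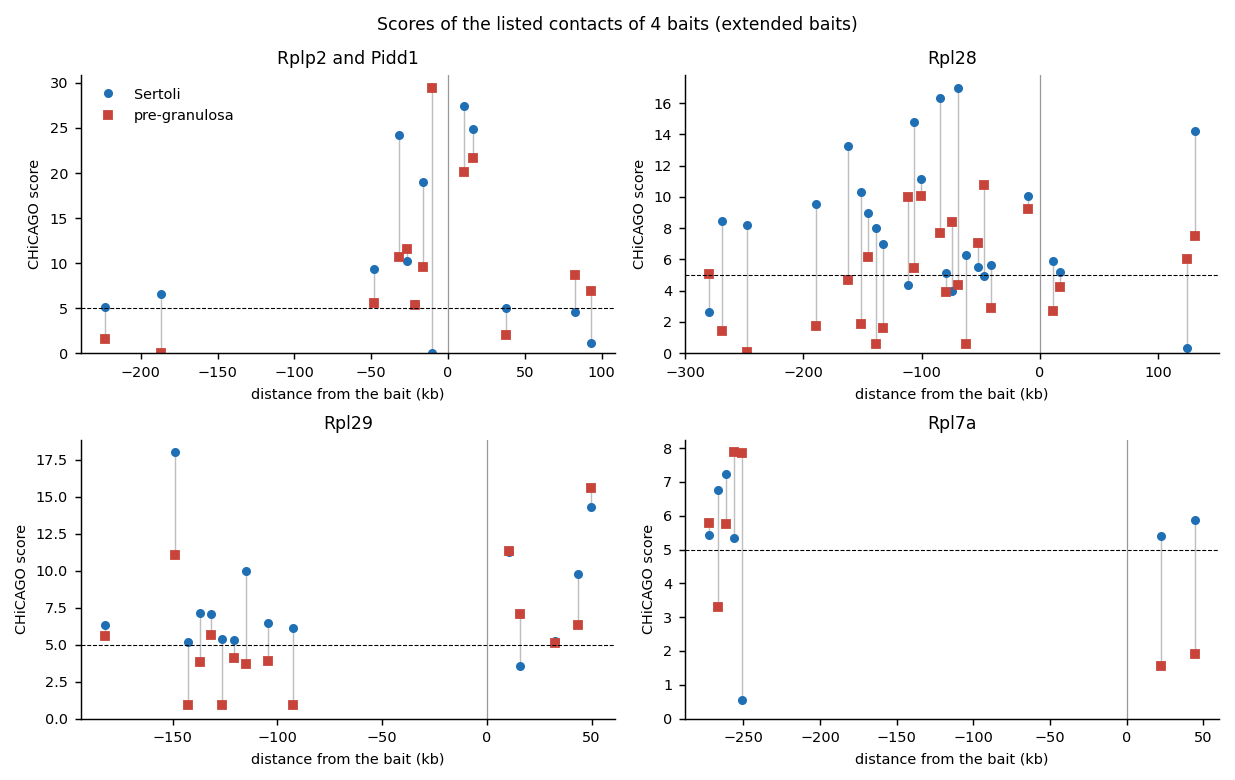
CHiCAGO scores (y axis) of the listed interactions of 4 extended baits by distance of the other end from the bait (x axis, kb), in Sertoli cells (blue circles) and pre-granulosa cells (red squares), joined by a grey line for each bin, with a dashed line at the threshold of 5. Rplp2 reaches 27.5 in Sertoli cells near the bait, Rpl28 and Rpl29 show stretches with higher Sertoli scores, and the Rpl7a panel shows the 5 touching bins beyond 250 kb.

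The stalk proteins Rplp0, Rplp1 and Rplp2 recruit the translation factors that drive the ribosome. Rplp2, whose extended bin also holds Pidd1, had the highest Sertoli score of all members, 27.5 with Pnpla2, the gene of adipose triglyceride lipase. It scored 24.8 with the bin of Pnpla2 and Cracr2b and 24.2 with Gatd1. The pre-granulosa scores of these 3 bins were 20.1, 21.6 and 10.7. From the original bait of Rplp2, free of Pidd1 in its name, the extended Pnpla2 bin was matched by a pair of bins. The one that begins at the same coordinate scored 8.11 and 7.85, with Sertoli cells higher as in the extended table, and the next, over Pnpla2, scored 5.95 and 12.3. The original bin matched to Gatd1 scored 5.85 and 6.99, with pre-granulosa cells higher, and a bin without a protein-coding gene 29.9 kb away scored 4.08 and 10.4, where the extended bin had 10.2 and 11.6. That bait had 3 Sertoli and 5 pre-granulosa calls, and all 3 Sertoli calls were shared. Rplp0 met Gcn1, a regulator of translation, with 5.76 and 0.532 from the original bait, and Pxn with 15.7 and 4.47 from the extended one. Rplp1 met Kif23 with 6.67 and 5.83.

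A Sertoli score of 0 at 1 bin near Rplp2 goes with the bin. The bin of Slc25a22, a mitochondrial glutamate carrier, lay 10.6 kb from the Rplp2 bin and was listed at 0 for Sertoli and 29.5 for pre-granulosa cells. All 9 interactions with this bin as the other end, from 9 different baits, were listed at 0 in Sertoli cells. From the Slc25a22 bait itself the same pair scored 46.7 and 26.1. The contact with Phrf1, 187 kb away, was listed at 6.57 and 0, and at 8.06 and 0 from the Phrf1 bait.

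Rpl13a was called mostly in Sertoli cells from its original fragments. Rpl13a-215 had 6 Sertoli and 2 pre-granulosa calls, with Rcn3, which encodes a calcium-binding protein of the endoplasmic reticulum, at 5.01 in Sertoli and 9.30 in pre-granulosa cells. Flt3l, the gene of a haematopoietic cytokine, scored 7.32 and 3.60, and Aldh16a1 6.38 and 2.31. The fragment Rpl13a-201 had 1 contact, with the same bin of Rcn3, at 7.34 and 1.94, so fragments of 1 gene differed in the cell type with the higher score. The extended bin with Rpl13a-201 had 8 interactions, 4 of them shared. Its highest scores were with Fcgrt, the neonatal Fc receptor gene (12.2 and 19.7), and a bin of Rcn3 (6.88 and 11.6), followed by the shared contact with Scaf1 and Rras (8.68 and 9.87) and Aldh16a1 (9.30 and 4.31). From the partner baits the Rcn3 and the Scaf1 and Rras pairs were pre-granulosa-specific, at 3.91 and 11.2 and at 4.46 and 7.73, and the Aldh16a1 pair was shared, at 9.27 and 5.71.

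The small subunit genes named here had at most 4 listed interactions each. Rps19, the gene most often mutated in Diamond-Blackfan anaemia, met Dmrtc2, a DM-domain gene, with 7.80 in Sertoli and 15.7 in pre-granulosa cells (4.23 and 10.6 from the Dmrtc2 bait), and Arhgef1 with 10.7 and 9.80. Rps16 met Plekhg2 with 10.8 and 18.2 and Zfp36, an RNA-binding protein gene, with 13.6 and 5.42. Rps9 met the bin of Mboat7 and Tsen34 with 17.1 and 11.5, and 6.25 and 4.70 from the other end. Rps25 met Slc37a4 with 20.01 and 18.8, and 3 of its 4 extended contacts were shared. Rps21 met Mtg2 with 7.63 and a listed 0, and 5.81 and 0 from the Mtg2 bait, while a bin of Gata5, a GATA transcription factor gene, scored 1.03 and 5.04. Rps20 met Mos, an oocyte kinase gene, with 5.74 and 8.66, and 3.55 and 7.37 from the Mos bait.

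Some promoters were called in 1 cell type alone, always with 1 or 2 interactions. From the original baits 3 of 23, Rpl37a and Rps25 among them, had no Sertoli call, against 14.3% of all. No pre-granulosa call was made for 9 of 23, against 33.7%, among them Rpl35, Rps21, Rplp0, Rpl28-203, Rpl13a-201, Rps3 and both Rpl29 fragments. From the extended baits 6 of 38, with Rpl37a, Rpl34, Rpl5, Rps13 and Rps27l, had no Sertoli call, against 11.6%, and 3 of 38, with Rpl22 and Rplp0, had no pre-granulosa call, against 15.8%. Rpl37a and Rplp0 alone appeared on the same side in both tables.

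The paralogs Rpl22l1 and Rps27l, close copies of Rpl22 and Rps27, had 2 and 1 extended interactions. Rpl22l1 met a bin 161 kb downstream with no protein-coding gene, with 8.42 in Sertoli and 8.70 in pre-granulosa cells from the original bait and 7.74 and 8.42 from the extended one, a shared call in both tables. It also met Eif5a2, a translation factor gene, with 2.88 and 6.43. Rps27l met Rab8b with 3.41 and 5.50, and with 5.92 and 9.45, a shared call, from the Rab8b bait. Rpl22 itself met Chd5 with 5.35 and 4.10.

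**Figure D4:**
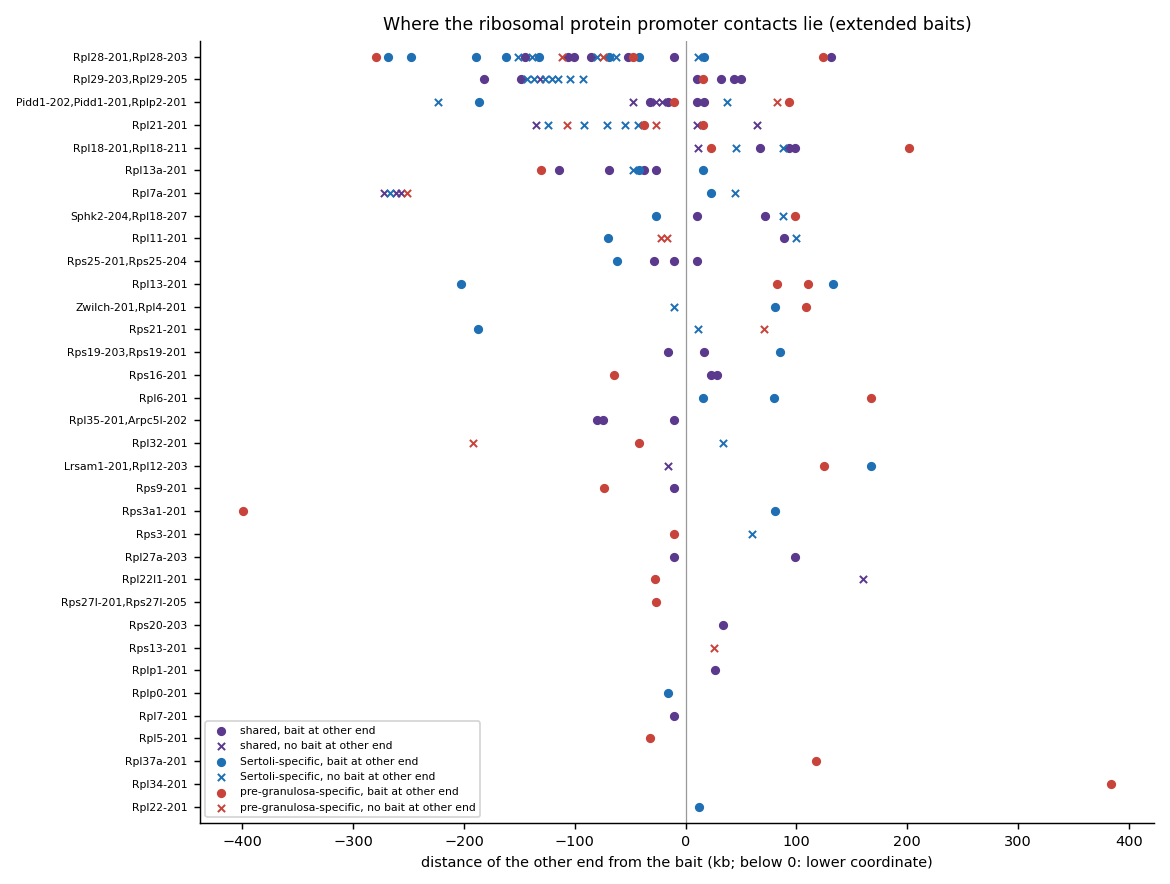
Distance of the other end from the bait (x axis, kb, negative towards lower coordinates) for 150 of the 191 interactions, from 34 of the 38 extended ribosomal protein baits (y axis), coloured by the cell type in which they were called; circles end in a bin with a promoter bait and crosses in one without. Most lie within 200 kb, and the farthest are Rps3a1 at 399 kb and Rpl34 at 384 kb.

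Median distances of member contacts were larger than those of all baits, with intervals that hold the values of all baits over all 9 chromosomes. The median distance was 57.3 kb (38.4 to 81.5) for original Sertoli calls, against 42.6 kb, and 32.1 kb (18.7 to 53.9) for pre-granulosa calls, against 26.0 kb. With extended baits the medians were 64.3 kb (47.2 to 80.3) against 48.0 kb and 47.9 kb (32.1 to 72.1) against 37.9 kb. The large subunit had 47 Sertoli and 29 pre-granulosa original calls from 16 baits, 16 of them shared, and the small subunit 13 and 10 from 7 baits, 2 of them shared. With extended baits these were 121 and 97 with 61 shared, and 49 and 37 with 24 shared, a bin with a gene of each subunit counted in both.

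Members lay on chromosome 7 and among other genes more often than baits in general. Chromosome 7 held 11 of 23 original member baits, 47.8% against 18.3% of all, and 13 of 38 extended ones, 34.2% against 17.5%. The median member bait had 10 protein-coding genes within 100 kb in the original table and 6 in the extended one, against 5 over all baits. Outside chromosome 7 the members' call ratio was 1.65 (0.953 to 2.86) in the original and 1.19 (0.811 to 1.74) in the extended table. There the median original Sertoli distance was 73.3 kb (47.2 to 126), against 44.5 kb of all baits outside chromosome 7, and the interval leaves out that value. The other 3 median distances outside chromosome 7 had intervals that hold those of all baits there. On chromosome 7 the original Sertoli median was 41.2 kb (13.6 to 80.0), against 35.3 kb. The part of gene density in these values was not tested.

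No ribosomal protein bait was listed in contact with another. The tables offered little room for it: 8 original and 2 extended pairs of member baits lay within 200 kb of each other, all within a single gene or between immediate neighbours, and the extended table listed nothing nearer than 10.03 kb. Members had no listed contact with another chromosome either, and such contacts made up 0.919% and 0.456% of all listed interactions, so that 0 among so few is near the background.

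In the extended table the partners were other promoters more often than not. From the original baits 1 of 60 Sertoli and 0 of 39 pre-granulosa calls ended in a bait, against 0.0903% and 0.0665% of all baits' calls. Of the extended calls 88 in Sertoli cells, 60.3% (52.2% to 67.8%), ended in a bin with a bait name, against 55.2% of all baits' calls, and 83 in pre-granulosa cells, 71.6% (62.8% to 79.0%), against 61.0%. Over all baits of chromosome 7 the shares were 62.4% and 68.9%. Outside it the members had 52.6% (39.9% to 65.0%) in Sertoli cells, against 53.2% of all baits there, and 66.7% (52.5% to 78.3%) in pre-granulosa cells, against 58.9%, so that neither interval excludes the value of all baits. These 120 listed contacts of 37 baits named 110 partner genes. Of them Rrp9, needed to process ribosomal RNA, and Eif5a2 belonged to the lists of the translation machinery, and none to mitochondrial ribosomal proteins or RNA polymerase I. Over all baits 0.544% of such contacts ended at ribosome biogenesis genes, 0.439% at mitochondrial ribosomal proteins and 0.133% at RNA polymerase I. Eif5a2 stands in both the initiation and the elongation list, at which 0.252% and 0.0324% ended. With 0 or 1 member contact for each list, no difference from all baits is read from these counts.

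Among pairs listed from both ends, looking back from the partner gave the same call for most. Of the 120 contacts 97 were also listed with the partner as bait, and 70 of these had the same class from both ends. Pairs listed from the member alone or from the partner alone are left out of that share. No such share was counted over all baits. In Sertoli cells 65 of the 97 were called from both ends, 9 from the ribosomal protein bait alone and 10 from the partner alone. In pre-granulosa cells the numbers were 66, 2 and 7. Another 41 contacts were listed from the partner only, among them Gdpd5 with Rps3 (10.3 in Sertoli, 9.38 in pre-granulosa cells) and the bin of Cd151 with Rplp2 (22.7 and 23.0). Rps6 and Rps15a, which had no listed row as baits, were seen this way: Acer2 met Rps6 with 6.73 and 4.60, and Arl6ip1 met Rps15a with 6.82 and 8.90.

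Over all listed interactions the other ends held genes about as often as elsewhere. A protein-coding gene overlapped 65.4% (54.6% to 74.9%) of the original other ends, against 72.4% over all baits, and 87.4% (82.0% to 91.4%) of the extended ones, against 84.6%. By cell type the original shares were 65.0% (52.4% to 75.8%) of Sertoli calls, against 73.4%, and 56.4% (41.0% to 70.7%) of pre-granulosa calls, against 71.3%. The pre-granulosa interval leaves out the value of all baits. In the extended table the intervals of both cell types hold it. A pseudogene overlapped 3 other ends in each table, where 2.62% and 2.59% of all other ends held one. Where RefSeq gave the direction of the gene, 18 original interactions lay upstream and 22 downstream, and 47 and 43 of the extended ones. None of the original and 2 of the extended other ends overlapped the gene's own body.

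Other lists of genes of the translation machinery were counted in the same way. Mitochondrial ribosomal proteins, encoded in the nucleus for the organelle's own ribosome, had 105 Sertoli and 61 pre-granulosa calls from 21 original baits, 37 shared, a ratio of 1.72 (1.26 to 2.36). Ribosome biogenesis factors had 73 and 43 from 31 baits, 21 shared, a ratio of 1.70 (1.17 to 2.47), and initiation factors 60 and 40 from 19 baits, 21 shared, a ratio of 1.5 (1.01 to 2.23). With extended baits the ratios were 1.08 (0.849 to 1.36), 1.19 (0.956 to 1.48) and 1.59 (1.17 to 2.15). Elongation factors had 13 and 2 original calls from 6 baits, a ratio of 6.5 (1.64 to 25.8), and RNA polymerase I subunits 23 and 7 from 4, a ratio of 3.29 (1.44 to 7.48). Their extended ratios were lower, 2.25 (1.0 to 5.06) and 1.65 (0.953 to 2.86). In the original table the intervals of all 5 lists overlap that of the ribosomal proteins, and no difference between lists was tested.

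**Figure D5:**
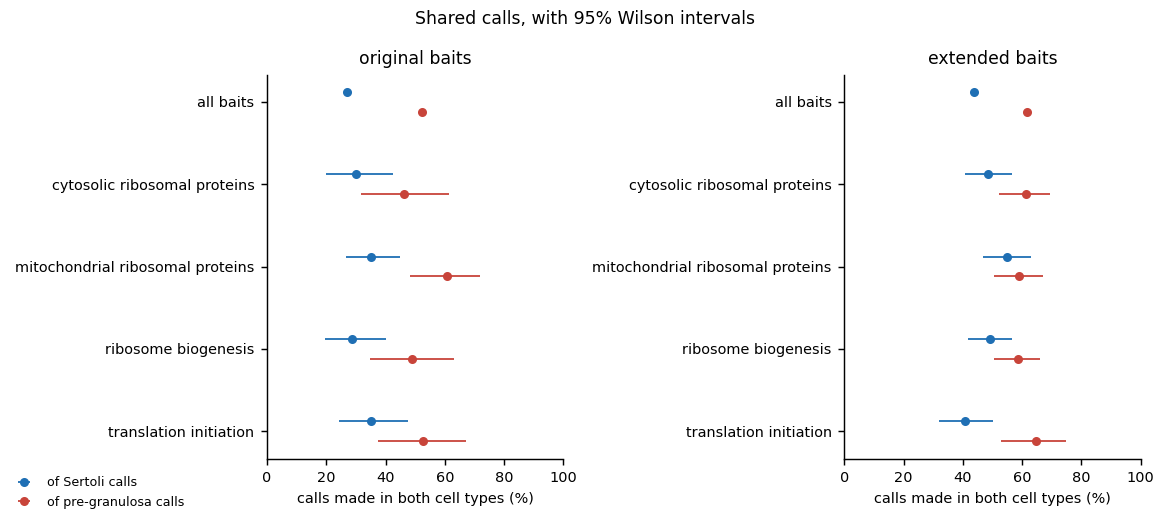
Share of the calls of 1 cell type that were also made in the other (x axis, %), of Sertoli calls (blue) and of pre-granulosa calls (red), with 95% Wilson intervals, for all baits and 4 gene groups (y axis) in the original (left) and extended (right) table. The intervals of the ribosomal proteins, 19.9% to 42.5% and 31.6% to 61.4% on the left, include the values of all baits.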

How the data were processed

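Capture Hi-C of 3 Sertoli and 2 pre-granulosa libraries was deposited as 2 tables of interactions with 1 score per cell type. The authors deposited these as CHiCAGO scores, per the names of the tables, and per the labels all libraries of a cell type stand behind 1 column. Coordinates are mm10, per the submitters' processing notes; the aligner, the settings of the score and the read depth are not given in the sources used here. Both tables hold only interactions with a score of at least 5 in at least 1 cell type. They rest on the same libraries, so a contact found in both is not an independent repeat.

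Cis interactions of baits on chromosomes 1 to 9 were kept, and bait names were split into gene symbols. Calls (score at least 5), shared calls and distances were counted with Python 3.11.15, pandas 2.3.3, numpy 2.4.6 and scipy 1.17.1, after the counting had been tested on simulated data. Shares have Wilson intervals, medians binomial order-statistic intervals, and ratios an interval that treats calls as independent counts. Calls of touching bins are not independent, nor are the 2 calls of a shared interaction. Bins of both tables were matched at an overlap of at least 50% of the shorter. Genes, promoters and sequences are from RefSeq GRCm38.p6.

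The genes named are the baits with most interactions, the largest excess of calls, the highest scores and largest score differences (on an inverse hyperbolic sine scale) in each table, all contacts of 200 kb or more and all baits without a call in 1 cell type; other named contacts were chosen after their values were seen. The members and gene lists were chosen with earlier results of these data known. Alternatives were other thresholds, equal numbers of calls, a minimum distance, baits with member symbols alone, no paralogs and touching bins joined. Some baits and partners are counted but not reported here by name or drawn one by one.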

Additional observations from a re-analysis of the deposited data

How the results depend on the processing

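No paired analysis was possible because the scores come in 1 column for Sertoli and 1 for pre-granulosa cells, with none for a numbered library, and for the same reason no library could be left out. Of 90 alternative values 68 stayed within the spread set for them, 21 moved and 1 reversed. For counts that spread was a factor of 1.5, and for ratios, shares and medians the interval of the main value. Some of the 68 could not move. All original member baits carry member symbols alone, so that alternative left every original value as it was. Equal numbers of calls left pre-granulosa counts and distances unchanged, and an absence of contacts between members cannot end at a higher threshold. The tally is thus no measure of stability. The counts of 60 Sertoli and 39 pre-granulosa calls became 146 and 116 with extended baits, 26 and 16 at a threshold of 7, and 3 and 3 at a threshold of 10, where the call ratio was 1, the median distances were 87.0 kb and 11.1 kb, and too few calls were left to read. With equal numbers of calls over all baits 34 Sertoli calls remained in the count, the ratio reversed to 0.87, and the shared part of pre-granulosa calls was 30.8%. The shared part of Sertoli calls was 48.6% with extended baits. Calls ending in a bait bin made up 71.4% of Sertoli calls at a threshold of 7 and 81.4% at 10, and 84.8% of pre-granulosa calls at 10; with touching bins joined the shares were 72.4% and 79.1%. In alternatives chosen after seeing the data, 33 Sertoli and 20 pre-granulosa calls were left without chromosome 7, and 36 and 17 without the 3 baits with most interactions. Of the 81 original interactions 61 had a matching extended one, and 41 kept their class: 14 of 18 shared, 20 of 42 Sertoli-specific and 7 of 21 pre-granulosa-specific. The cause of these changes was not tested. The original and extended tables differ most in calls made in 1 cell type alone, and 31 and 14 of the Sertoli-specific and pre-granulosa-specific interactions had a match at all.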

Other observations

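Contacts listed from the partner alone added neighbours to several members. Rpl11, which binds Mdm2, was met in this way by Lypla2 (5.47 in Sertoli, 6.24 in pre-granulosa cells) and Eloa, a transcription elongation factor gene (5.47 and 6.07), both called in both cell types. Adrm1, which encodes a ubiquitin receptor of the proteasome, met Rps21 with 3.11 and 6.17, and Arrb1 met Rps3 with 2.44 and 8.04. From the Rps3 bait, another bin of Arrb1 went the other way in both tables, at 5.31 and 3.83 in the original and 6.93 and 3.94 in the extended one. Of the 41 such contacts 27 were called in Sertoli cells, 25 in pre-granulosa cells and 11 in both. These values describe single pairs of pooled scores and carry no test.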
